A study of Mus musculus with 3 samples.

Results

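Among the cells of the mouse mitral valve, 404 carried fibroblast genes and the endothelial gene Egfl7 together, out of 16383 cells in all. A cell was placed in this class when at least 2 of the fibroblast genes Prrx1, Col3a1 and Dpt had a unique molecular identifier (UMI, the tag that counts 1 captured transcript), Egfl7 had a UMI, and the leukocyte gene Ptprc had none. The class made up 2.47% of cells, with a 95% exact binomial interval from 2.23 to 2.72. The rule uses measured values, so the levels of its 5 genes describe the choice and are not findings. Besides the class, 7175 cells had Egfl7 with none of the 3 fibroblast genes and no Ptprc (Egfl7-only cells), and 3075 cells had at least 2 of the 3 fibroblast genes with neither Egfl7 nor Ptprc (fibroblast-only cells). These were the comparison groups.

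The values came as 1 table of genes by cell barcodes, pooled by the authors over libraries. Listed with it were 3 samples, mitral valves of 12-week-old mice of the strain B6.129-Fbn1tm2Rmz/J, whose libraries were named mgR/mgR. These mice carry on both chromosomes a germline hypomorphic allele that lowers fibrillin-1, an extracellular microfibril protein. The study also describes wild-type littermates, mgR mice treated with rapamycin, and single nuclei. The labels name single cells on a droplet platform with 3' chemistry. No barcode carries a mouse, genotype, treatment or library. The matrix was therefore treated as 1 sample, with no test, no comparison of genotypes or treatments and no spread between mice.

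Valve interstitial fibroblasts build the collagen and proteoglycan layers of the leaflet, and endothelial cells line its surface. Prrx1 encodes a mesenchymal transcription factor, Col3a1 the chain of type III collagen, and Dpt dermatopontin, a small matrix protein, whereas Egfl7 encodes a protein secreted by endothelial cells. During development, cells of the valve cushion arise from endothelium by endothelial to mesenchymal transition, in which genes of both kinds may be used in the same cell for a time. In droplet data a barcode can also hold the RNA of more than 1 cell, or free RNA of the suspension. Whether a barcode of the class stood for 1 cell, for several or for free RNA was not tested, and no doublet caller was run and no doublets were removed.

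Totals ran from 503 to 23127 UMIs per cell (median 5349), and a median of 15.7% of them fell on the 3264 genes used here. The 3244 of these that matched an annotation of GRCm38 by symbol lay on chromosomes 1, 2 and 3, so genes of other chromosomes were not analysed here. By alphabetical order the columns fell into 2 runs, with 14222 and 2161 cells, which are not tied to a library or a genotype. Of the barcodes, 11 occurred in both runs, and 0 of them were in the class. Intervals are 95% exact intervals and cover counting error only.

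The runs held the class at shares whose intervals overlapped, with 349 cells (2.45%) in the first and 55 (2.55%) in the second. All 3 fibroblast genes were detected in 151 of its cells and 2 of them in 253. Col3a1 was the most frequent, in 356 cells, followed by Prrx1 in 320 and Dpt in 283. The pairs without Dpt were more frequent, at 121 cells, than those without Prrx1, at 84, or without Col3a1, at 48. At the edge of the rule, 195 cells carried 1 Egfl7 UMI and 209 carried more, and 113 cells met it with 1 Egfl7 UMI and 2 fibroblast genes. Just outside it, 1628 cells had Egfl7 and exactly 1 of the fibroblast genes, and 17 cells met all conditions apart from having Ptprc. In GRCm38, Prrx1 lies at chr1:163245119-163313710 on the minus strand, Col3a1 at chr1:45311538-45349706 and Dpt at chr1:164796644-164824266 on the plus strand. Egfl7 lies at chr2:26580014-26593120 on the plus strand.

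Cells of the class held more UMIs than cells of either comparison group, and fewer than the sum of a cell of each. Their median total was 8702.5 UMIs (8225 to 9187, n = 404 cells), against 5288 (5210 to 5350) in Egfl7-only and 6016 (5900 to 6138) in fibroblast-only cells. The class median was thus 1.65 times that of Egfl7-only and 1.45 times that of fibroblast-only cells. The intervals of these medians did not overlap. Within the first run the ratios were 1.69 and 1.44, and within the second they were smaller, at 1.32 and 1.29. Cells with Egfl7 and 1 fibroblast gene, with a median of 5618 UMIs, lay near the comparison groups and not near the class.

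For the sums, every Egfl7-only cell was added to every fibroblast-only cell of the same run, 17387700 pairs in all. Their median was 11550 UMIs, so that of the class was 0.753 of it, and 20.7% of the sums were at or under the class median. Within the first run the ratio was 0.739 and within the second 0.636, both below the pooled ratio. The first run held 17098850 of the pairs and 349 of the 404 class cells, so the pooled sums weigh it more. The medians of both comparison groups added up to 11304 UMIs, and 99 of the 404 class cells lay above this value. It was also passed by 471 Egfl7-only and 265 fibroblast-only cells. The largest class cell had 17274 UMIs, below the largest cell of either comparison group, at 23127 and 19795. The study's methods describe leaving out cells with many genes, which may limit the largest totals of single barcodes. The sums were formed here without such a limit. The part of this filter in the ratios to the sums was not tested.

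**Figure D1:**
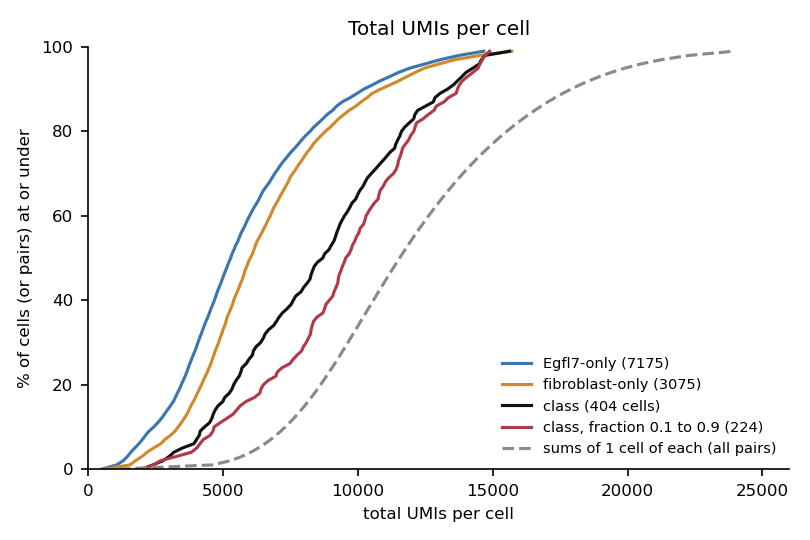
Total UMIs per cell (x) against the percentage of cells or pairs at or under that total (y), for the class, its cells with an endothelial fraction of 0.1 to 0.9, both comparison groups and the sums of 1 cell of each. Lines stop at the 99th percentile. The medians are 5288, 6016, 8702.5, 9553 and 11550 UMIs from left to right.

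The share of cells that met the rule rose with depth. It was 0.266% below 2500 UMIs, 1.11% from 2500 to 5000, 1.83% from 5000 to 7500, 4.62% from 7500 to 10000 and 8.09% (6.83 to 9.51) from 10000 to 15000 UMIs. Above 15000 UMIs it was 3.77% (1.40 to 8.03), from 6 of 159 cells. The share of Egfl7-only cells was 46.2% from 2500 to 5000 and 42.9% from 10000 to 15000 UMIs, while that of fibroblast-only cells rose too, from 8.47% below 2500 to 15.8% from 2500 to 5000, 22.2% from 10000 to 15000 and 29.6% above 15000 UMIs. A cell needs at least 3 particular UMIs to enter the class, so deeper cells meet the rule more readily. To take this out, each cell was thinned to 2000 UMIs and the rule was applied again. Of 15105 cells deep enough, 78 (0.516%) then met it, and 74 of these belonged to the class without thinning.

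Genes that the rule did not use showed that the class was not of 1 kind. A panel of 80 endothelial genes was taken as those at 10 or more times the level in Egfl7-only than in fibroblast-only cells, and a panel of 165 fibroblast genes as the reverse, with the genes of the rule left out. The endothelial fraction of a cell is its UMIs of the endothelial panel over those of both panels. Its median was 0.968 in Egfl7-only cells, 0.0217 in fibroblast-only cells and 0.227 (0.189 to 0.265) in the class. By this fraction, 152 cells of the class (37.6%) lay under 0.1, as most fibroblast-only cells did, and are called the fibroblast range. Another 28 cells (6.93%) lay over 0.9, the endothelial range, and 224 cells (55.4%, interval 50.5 to 60.4) lay from 0.1 to 0.9, the middle range. These ranges are steps on a continuous score and not cell types. Within 0.02 of the lower limit lay 18 class cells and within 0.02 of the upper limit 12. Of the comparison cells, 17.3% of Egfl7-only and 4.49% of fibroblast-only cells also lay from 0.1 to 0.9, as did 32.3% of the cells with Egfl7 and 1 fibroblast gene.

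**Figure D2:**
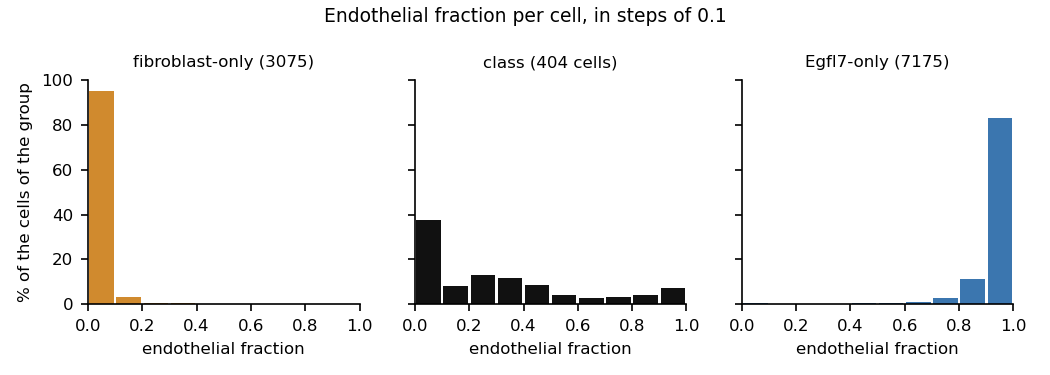
Endothelial fraction per cell (x, in steps of 0.1) against the percentage of the group's cells (y), for fibroblast-only cells, the class and Egfl7-only cells. The comparison groups sit at the ends, with medians of 0.0217 and 0.968, while 224 of the 404 class cells lie between 0.1 and 0.9.

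The runs differed in this make-up. Of the class cells of the first run, 58.5% (53.1 to 63.7) lay in the middle range and 34.4% in the fibroblast range. Of those of the second run, 36.4% (23.8 to 50.4) and 58.2% did. The median fraction of the class was 0.246 in the first run and 0.0614 in the second. Within the middle range the runs were alike, at median fractions of 0.354 and 0.359.

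Middle-range cells carried UMIs of both panels in number. Their median was 45.5 (42 to 53) UMIs of the endothelial panel, against 51 in Egfl7-only and 3 in fibroblast-only cells. Of the fibroblast panel it was 90 (76 to 98), against 2 in Egfl7-only and 113 in fibroblast-only cells. The count of the endothelial panel was therefore near that of an Egfl7-only cell. That of the fibroblast panel was lower than in fibroblast-only cells, whose interval was 110 to 116. At a like depth both counts were lower than in the matching group. Among cells with 10000 to 15000 UMIs, the median was 63 UMIs of the endothelial panel in middle-range cells and 110 in Egfl7-only cells, and 127 of the fibroblast panel in middle-range cells and 244 in fibroblast-only cells.

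**Figure D3:**
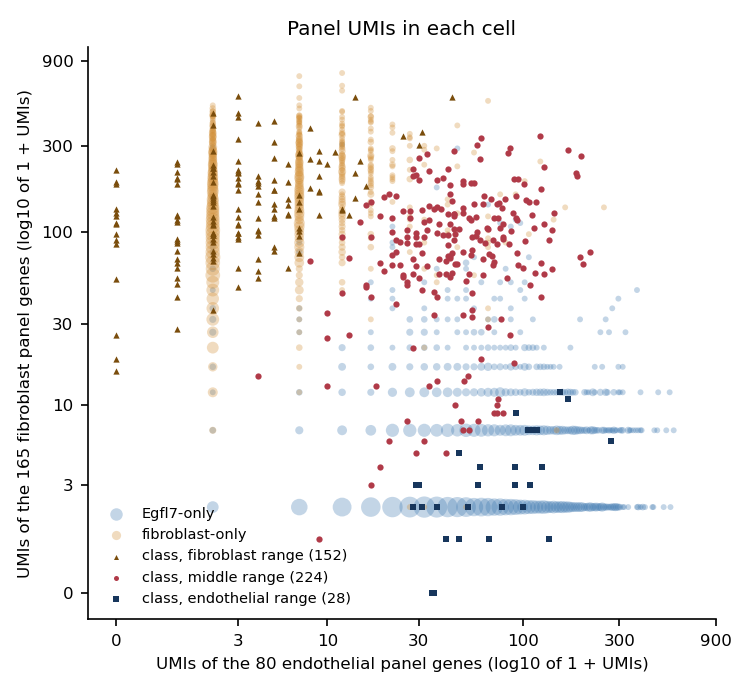
UMIs of the endothelial panel (x) and of the fibroblast panel (y) in each cell, on axes of log10 of 1 + UMIs. Small symbols are the 404 class cells by range, and pale circles are comparison cells counted in squares of 5 by 5 UMIs, with a larger circle for more cells. Middle-range cells lie in the corner where both counts are high, with medians of 45.5 and 90 UMIs, and the other class cells lie over the comparison groups.

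The ranges also differed in total UMIs. The middle range had a median of 9553 UMIs (9190 to 10076), which was 1.81 times that of Egfl7-only cells, 1.59 times that of fibroblast-only cells and 0.827 of that of the sums. Within the first run it was 0.822 and within the second 0.776 of the sums, both below the pooled ratio. The fibroblast range had 7091 (6237 to 7980) and the endothelial range 6287 (4869 to 8225) UMIs. The interval of the fibroblast range lay above that of fibroblast-only cells, and that of the endothelial range held the medians of both comparison groups. The middle range alone rose from 0.605% of cells between 5000 and 7500 UMIs to 5.82% between 10000 and 15000.

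More genes were detected in the middle range, with a median of 630 listed genes, against 397 in Egfl7-only and 455 in fibroblast-only cells. After thinning each cell to 2000 UMIs the medians were 225 (223 to 228), 207 and 218. At 10000 to 15000 UMIs they were 702, 641 and 633 genes. Middle-range cells thus had more different genes than cells of either group after thinning and from 5000 to 15000 UMIs. From 2500 to 5000 UMIs their median was 344 genes, between 331 in Egfl7-only and 360 in fibroblast-only cells. Above 15000 UMIs, with 2 middle-range cells, it was 704, below 727 and 719. Thinning left out 2 class cells, 497 Egfl7-only cells and 92 fibroblast-only cells as too shallow.

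The genes of the rule themselves, which chose the cells, separated the ranges as follows. Egfl7 had a mean of 4.35 UMIs per cell in the middle range and 4.43 in the endothelial range, beside 4.29 in Egfl7-only cells. In the fibroblast range its mean was 1.16, and 144 of the 152 cells there had exactly 1 Egfl7 UMI. That is the least the rule allows, so the fibroblast range consisted mostly of cells with fibroblast genes and a lone Egfl7 transcript. Among all cells with at least 2 fibroblast genes, no Ptprc and a fraction under 0.1, Egfl7 was detected in 5.02%, and in 1.76% (1.32 to 2.30) after thinning to 2000 UMIs. In cells with Ptprc, which should lack the gene, it was detected in 26.4%, and in 13.7% (11.1 to 16.5) after thinning, at a median depth of 5947 UMIs beside 6148. The share among fibroblast-gene cells lay below that in Ptprc cells. The Ptprc cells had no limit on their fraction, which makes the comparison uneven. Whether these UMIs are expression of Egfl7 was not tested, nor was their source. In Egfl7-only cells the thinned share was 72.1% and in the middle range 59.2% (52.4 to 65.7).

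As summed levels, the rule's genes in the middle range lay between nothing and the level of the comparison group. A level here is the sum of a gene's UMIs in a group, divided by the group's UMIs over all genes and multiplied by 10000. Prrx1 had a level of 2.13 (1.94 to 2.34) in the middle range and 3.55 in fibroblast-only cells. Col3a1 had levels of 3.36 (3.11 to 3.61) and 5.69, and Dpt levels of 1.52 (1.36 to 1.69) and 2.93. Egfl7 had a level of 4.62 (4.33 to 4.92) in the middle range and 7.27 in Egfl7-only cells. Each of the 4 was thus lower per UMI than in the comparison group chosen by the same gene.

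Across the genes measured, the middle range lay close to a mixture of the comparison groups. The mixture level of a gene is a weighted mean of its levels in both groups, with the weight set by the panels. The endothelial panel gave a fibroblast weight of 0.495 and the fibroblast panel one of 0.503, and their mean of 0.499 was used. Within the first run the weight was 0.506 and within the second 0.478. A sum of 1 cell of each group, by their mean totals of 6602 and 5901 UMIs, would hold 0.528 of its UMIs from the fibroblast-only cell. The same panels chose the middle range and set its weight. A weight near the middle thus follows in part from that choice, and the values are a description. Over 1692 genes with at least 20 UMIs expected, the ratio of the level to the mixture level had a median of 0.994, and the ratio ran from 0.670 at the 5th to 1.29 at the 95th percentile. At the fixed size of 1.5 times, 18 genes (1.06%) lay above the mixture and 82 (4.85%) below it, 100 in all (5.91%). Of the 1692 genes, 485 had levels at least 2 times apart between the groups. A gene with like levels in both has much the same mixture level at any weight, so its nearness says little. The share off the mixture among the 485 alone was not computed. For the whole class, whose fibroblast weight was 0.649, 17 of 1892 genes (0.899%) lay above and 58 (3.07%) below, 75 in all (3.96%).

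**Figure D4:**
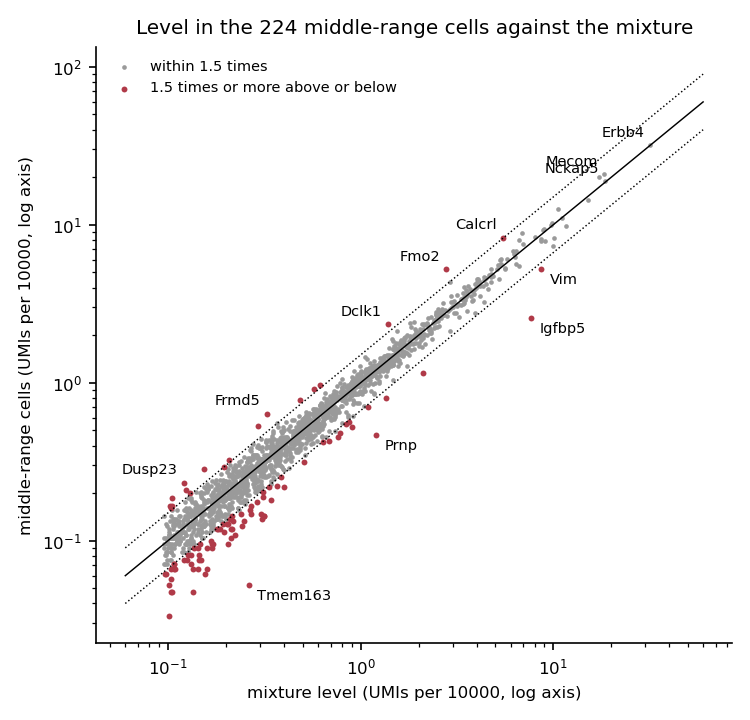
Level of each gene in the 224 middle-range cells (y) against its mixture level (x), both in UMIs per 10000 on log axes. The solid line marks equal levels, the dotted lines 1.5 times above and below, and the genes beyond them are in red. Xirp2, with 0 UMIs, is not drawn. Genes lie along the line with a median ratio of 0.994.

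Genes that set the comparison groups apart took a middle position. Of 485 genes with levels at least 2 times apart between the groups, 472 (97.3%) lay between them in the middle range, and of all 1692 genes 1118 (66.1%) did. The panel genes among the 485 had chosen the cells, and without them 341 of 353 (96.6%) lay between. These 353 genes were taken by levels apart between the same groups that gave the panels. In cells chosen by a middle fraction, a position between the groups follows in part from the choice, so this share is a description too. Without panel genes, 83 of 1560 (5.32%) were off the mixture. On a scale from 0 at the other group's level to 1 at the level of its own group, the 80 endothelial panel genes had a median position of 0.441 and the 165 fibroblast panel genes one of 0.472. Since the panels set the weight, their medians are a description. Of the panel genes, 75 and 161 lay between 0 and 1.

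The leading panel genes, which helped to choose the cells and set the weight, are given as a description. Nckap5, the endothelial panel gene of the highest level, had a level of 18.9 (18.3 to 19.5) in the middle range, 34.7 in Egfl7-only and 2.49 in fibroblast-only cells, with a mixture level of 18.6. Erbb4, a receptor of neuregulins and the leading fibroblast panel gene, had a level of 32.1 (31.3 to 32.8), against 0.609 in Egfl7-only and 63.4 in fibroblast-only cells, with a mixture level of 32.0. The nearness of both to the mixture follows in part from that use. Ptgs1, the cyclooxygenase of prostaglandin synthesis, had a level of 2.36 and a mixture level of 2.07. Ccdc141 was lower, at a level of 8.24 against a mixture level of 10.1, and Calcrl, the calcitonin receptor-like receptor through which adrenomedullin acts, was higher, at 8.27 against 5.49. On the fibroblast side, Naaladl2 had a level of 5.60 against a mixture level of 5.27, Plxdc2 one of 5.50 against 6.60 and Kcnq5, a potassium channel, one of 3.28 against 3.77. Prg4, which encodes lubricin, had a level of 8.93 (8.53 to 9.34) against a mixture level of 6.85, and 22.4% of its UMIs came from 3 cells.

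Of a list of 20 endothelial genes, 17 were in the matrix and 11 had enough UMIs. Of the 11, 0 lay 1.5 times above or below the mixture, beside 5.91% of all genes tested, so with 11 genes the list is not set apart. Their median ratio was 1.14 beside 0.994 over all genes tested. Cd93, Thbd and Prox1 belonged to the endothelial panel, which set the weight. Eng, the TGF-beta co-receptor endoglin, had a level of 8.07 (7.69 to 8.46) against a mixture level of 6.66, and was detected in 218 of the 224 cells. Notch1 had a level of 1.57 against a mixture level of 1.68. Cd93 and Thbd, the latter encoding the anticoagulant receptor thrombomodulin, had levels of 1.11 and 0.740 against mixture levels of 1.35 and 0.958. Some genes of the list with too few UMIs for the count lay lower. The transcription factors Sox17 and Sox18 had levels of 0.0190 (0.00517 to 0.0486) and 0.0332 (0.0133 to 0.0684) against mixture levels of 0.0557 and 0.0742, from 4 and 7 UMIs. Hey1, a target of Notch, had a level of 0.0284 (0.0104 to 0.0619) against 0.0628, from 6 UMIs. Not every gene of the list was endothelial in this valve, since Mecom had a level of 32.2 in fibroblast-only and 4.66 in Egfl7-only cells. It had a level of 21.0 in the middle range.

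Of 20 listed matrix and fibroblast genes, 17 were in the matrix and 16 had enough UMIs. Of the 16, 0 lay above and 1, Igfbp5, below, again near the 5.91% of all genes tested, with a median ratio of 0.969. The fibroblast panel held 5 of the 16, Col5a1, Col6a3, Fmod, Prg4 and Fap. Col5a1 and Col5a2, chains of type V collagen, had levels of 1.97 and 6.27 against mixture levels of 2.03 and 6.30. Col6a3, of type VI collagen, had a level of 2.76 against 2.59, and Fbn1, the gene of fibrillin-1, a level of 4.04 (3.78 to 4.33) against 3.45. Fap, a protease of activated fibroblasts, had a level of 1.89 against 1.45, and Gsn, gelsolin, a level of 4.35 against 4.78. Igfbp5, a binding protein of insulin-like growth factors, had a level of 2.55 (2.34 to 2.78) in the middle range against a mixture level of 7.67. It was an endothelial gene here, at a level of 13.9 in Egfl7-only and 1.44 in fibroblast-only cells, and its ratio of 0.333 held at 0.329 in the first run and 0.227 in the second.

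Genes tied to endothelial to mesenchymal transition were off the mixture about as often as genes in general. Of 20 listed genes 15 were in the matrix and 13 had enough UMIs, of which 0 lay above and 1, Vim, below, beside 5.91% of all genes tested, with a median ratio of 1.05. The panels that set the weight held 3 of the 13, Twist2, Fn1 and Tgm2. Of the transcription factors, Zeb2 had a level of 6.05 (5.72 to 6.39) against a mixture level of 5.37, and Twist2 a level of 0.318 (0.246 to 0.403) against 0.239. Both were higher in fibroblast-only cells, at levels of 8.43 and 0.474. Snai1, the factor best known for this transition, was detected with 4 UMIs in 4 middle-range cells. Its level of 0.0190 (0.00517 to 0.0486) compares with 0.0142 in Egfl7-only and 0.0389 in fibroblast-only cells, so a difference was not detectable at this depth.

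The ligand Tgfb2 had a level of 1.05 (0.914 to 1.20) in the middle range, near that of fibroblast-only cells, at 1.02, and below that of Egfl7-only cells, at 1.91. Its ratio to the mixture was 0.714. The BMP receptors Acvr1 and Bmpr2 had levels of 3.54 and 3.53 against mixture levels of 2.93 and 3.50. The Notch ligand Jag1 had a level of 0.711 against 0.666. These values show no signalling gene of the list above both comparison groups.

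Of the products linked with mesenchymal cells, Fn1, fibronectin, had a level of 2.56 (2.34 to 2.78) against a mixture level of 2.25. It was an endothelial panel gene in this valve, at a level of 4.13 in Egfl7-only and 0.359 in fibroblast-only cells. Thbs1, thrombospondin 1, had a level of 0.967 against a mixture level of 0.918, Cd44 one of 1.28 against 1.57 and Tgm2, transglutaminase, one of 0.564 against 0.408. Vim, the intermediate filament vimentin, had a level of 5.25 (4.94 to 5.57) against a mixture level of 8.66. Vim was higher in Egfl7-only cells, at a level of 13.1, than in fibroblast-only cells, at 4.26. Its ratio was 0.552 in the first run and 1.03 in the second, so the low value rests on the first run. S100a4 had 7 UMIs in the middle range.

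**Figure D5:**
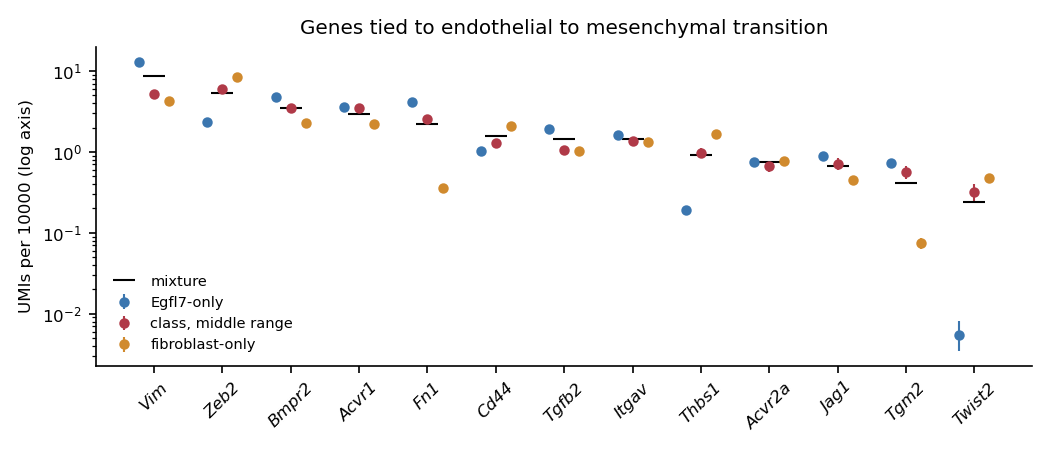
Level (y, UMIs per 10000, log axis) of the 13 genes of the transition list with at least 20 UMIs expected, in Egfl7-only, middle-range and fibroblast-only cells, with 95% exact Poisson intervals and the mixture level as a bar. Apart from Vim, at a level of 5.25 against a mixture level of 8.66, each middle-range level lies within 1.5 times of the bar.

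The genes above the mixture were led by Frmd5, Dusp23, Fmo2, Kcnip3 and Cacnb4. Frmd5 had a level of 0.635 (0.532 to 0.752) in 35 cells against a mixture level of 0.326. Dusp23, a phosphatase, had one of 0.232 (0.172 to 0.307) in 34 cells against 0.121. Fmo2, a flavin monooxygenase, had a level of 5.26 (4.95 to 5.58) in 113 cells against 2.78, and its ratio of 1.89 was 1.81 in the first run and 2.57 in the second. Cacnb4, a calcium channel subunit, had ratios of 1.68 and 2.80 in the runs. Some of the others rested on few cells or on 1 run. Dclk1 had a level of 2.34 against 1.38, with 44.7% of its UMIs in 3 cells, and ratios of 1.80 and 0.727 in the runs. Fibin had a level of 0.782 against 0.485, with ratios of 1.24 and 5.58. Slc7a14, with 39 UMIs, had 71.8% of them in 3 cells. The other genes of the 10 furthest above were Mecomos and Cstf1, at levels of 0.209 and 0.166.

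The genes furthest below were mainly genes of Egfl7-only cells. Xirp2, known from striated muscle, had 0 UMIs in the middle range, which at a limit of 3 counts allows a level of up to 0.0142, against 0.477 in Egfl7-only cells. Tmem163 had a level of 0.0522 (0.0260 to 0.0933) against 0.503 in Egfl7-only cells and a mixture level of 0.263. Prnp, the prion protein gene, had a level of 0.465 (0.377 to 0.566) against a mixture level of 1.21, and Atf3, a stress response factor, one of 0.0474 against 0.134. Chmp4c had a level of 0.142 against 0.317. The ratio of Prnp was 0.380 and 0.274 in the runs. Tmem163 and Chmp4c were low in the first run, at ratios of 0.139 and 0.341, and not in the second, where their ratios of 1.99 and 1.34 rest on 3 and 10 UMIs. Gm13986 was low among fibroblast genes, at a level of 0.138 against 0.587 in fibroblast-only cells. The rest of the 10 were Sfmbt2, Ifi207 and Ndufa8, at levels of 0.0332, 0.0616 and 0.0664.

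Several of these genes depended on which endothelial cells were taken for comparison. Egfl7-only cells lack Col3a1 by definition, whereas of the 1628 cells with Egfl7 and 1 fibroblast gene, 1404 had Col3a1, and 1051 of the 1628 had an endothelial fraction over 0.9. In these 1051 cells Fmo2 had a level of 10.9 (10.7 to 11.2), against 3.04 in Egfl7-only cells over the same limit. Calcrl had levels of 21.3 and 10.3, and Selp, the adhesion receptor P-selectin, levels of 0.819 and 0.294. Igfbp5 had levels of 6.70 and 13.4 and Kif26b levels of 1.31 and 3.27. Col3a1 was detected in 920 of the 1051 cells, and Nckap5 was alike in both groups, at levels of 40.8 and 38.8.

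With these 1051 cells as the endothelial side of the mixture, the ratio of Fmo2 in the middle range fell from 1.89 to 0.883, that of Calcrl from 1.51 to 0.795 and that of Frmd5 from 1.95 to 0.703. That of Igfbp5 went from 0.333 to 0.655, that of Prnp from 0.385 to 0.609 and that of Vim from 0.606 to 0.809. Of the transition list 1 of 13 genes was again below, now Tgfb2, whose ratio went from 0.714 to 0.487. Of the endothelial list 1 of 12, Fabp4, was below, and of the matrix list 1 of 16, Igfbp5. In this mixture 13 of 1677 genes (0.775%) lay above and 54 (3.22%) below, against the 18 and 82 of 1692 given above. Dclk1, Fibin and Cstf1 changed little, with ratios of 1.60, 1.54 and 1.52. With all 8803 cells that had Egfl7 and at most 1 fibroblast gene, the ratios were 1.42 for Fmo2, 1.29 for Calcrl and 0.367 for Igfbp5, and 11 of 1688 genes (0.652%) lay above and 68 (4.03%) below. This comparison was added after the values had been seen.

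The genes that mark kinds of endothelial cell and fibroblast in this valve were all represented in the middle range. Selp and Fabp4 had levels of 0.303 and 0.0996, against 0.352 and 0.168 in Egfl7-only cells. Prox1, a transcription factor of lymphatic and valve endothelium, had a level of 1.72 (1.54 to 1.90) against 2.83, and Kif26b 1.28 against 3.09. Kcnh1 had a level of 0.299 against 0.703. The order of these genes depended on the endothelial cells compared. The ratio of Selp to the mixture was 1.45 with Egfl7-only cells and 0.728 with the 1051 cells, whereas that of Kif26b was 0.737 and 1.58, that of Prox1 1.16 and 1.40, that of Kcnh1 0.777 and 1.04 and that of Tmem163 0.199 and 0.460. On the fibroblast side, Prg4 and Fmod, fibromodulin, had levels of 8.93 and 0.123 against 13.5 and 0.259 in fibroblast-only cells. Scn7a, a sodium channel, had a level of 0.588 (0.489 to 0.701) against 1.45, and Sfrp2, a secreted Wnt modulator, one of 0.0948 (0.0579 to 0.146) against 0.112.

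Few genes lay above both comparison groups. In the whole class, 19 of 1890 genes with at least 20 UMIs (1.01%) had a level at least 1.5 times that of the higher group, and 7 of 1653 (0.423%) one at most 1/1.5 of the lower. In 11 of the 19, at least 50% of the UMIs came from 3 cells. Gpr176 had 26 UMIs in 2 cells, Mylk2, a muscle myosin kinase, 22 UMIs in 3 cells, and Mrc1, the macrophage mannose receptor, 25 UMIs in 8 cells. Sgo2a, Knl1, Aspm, Cenpf and Ckap2l, genes of cell division, had most of their UMIs in the endothelial range. Without the 5 class cells that had at least 5 UMIs of a list of mitotic genes, 11 genes lay above both groups. Of the 10 furthest above, Gm10138 was the one spread most widely, with 20 UMIs in 18 cells.

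In the middle range alone, 9 of 1693 genes (0.532%) lay above both groups and 9 of 1453 (0.619%) below both. Apart from Gpr176, Mylk2 and Mrc1, those above were Dusp23, Frmd5, 1810024B03Rik, Zmynd19, Dnmt3b and Aim2. Frmd5 had a level of 0.356 in Egfl7-only and 0.296 in fibroblast-only cells. The one with the widest spread after Frmd5 and Dusp23 was Dnmt3b, a DNA methyltransferase, at a level of 0.133 (0.0882 to 0.192) in 26 cells against 0.0846 and 0.0724. Among those below in the class, Hey1 had a level of 0.0258 against 0.0621 in Egfl7-only and 0.0635 in fibroblast-only cells. Its 9 UMIs in the class set its precision. Nabp1 had a level of 0.0287 in the class, from 10 UMIs. Ankrd45, Spout1, Trp53rkb, Accs and Cables2 made up the 7.

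The 28 cells of the endothelial range lay at the other end of the score. Their medians were 73.5 UMIs of the endothelial panel and 3 of the fibroblast panel, and Col3a1 was detected in 27 of the 28, at a level of 3.86 (3.04 to 4.83). Col3a1 is a gene of the rule, so these values describe the choice. Prrx1 and Dpt were detected in 15 and 14 of the cells, at levels of 1.07 and 0.711. Twist2 had 0 UMIs in these cells, and Prg4 had a level of 0.355. As in the 1051 cells, Fmo2 and Calcrl were high, at levels of 10.7 (9.32 to 12.3) and 23.3 (21.2 to 25.5), and Kif26b was low, at 0.355 against 3.09 in Egfl7-only cells. Selp had a level of 1.17 (0.740 to 1.75) in 10 cells. Of the UMIs of Fmo2, Calcrl and Selp in the endothelial range, 43.6%, 41.2% and 52.2% came from 3 cells. The 7 UMIs of Kif26b were in 3 cells. Igfbp5 and Sulf1, a heparan sulfate editing enzyme, reached levels of 25.0 and 12.6, but 90.9% and 93.1% of their UMIs came from 3 cells.

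Dividing cells were frequent among these 28. At least 5 UMIs of the mitotic list, leaving out Hjurp, which was detected widely, were found in 4 of them, or 14.3% (4.03 to 32.7), against 39 of the 7175 Egfl7-only cells, or 0.544% (0.387 to 0.742). In the middle range it was 1 cell and in the fibroblast range 0 of 152, which at 3 cells allows a share of up to 1.97%. The 4 cells had 33 to 54 mitotic UMIs and totals of 7491 to 13983 UMIs. Knl1, a kinetochore gene, had a level of 1.73 (1.20 to 2.41) in the endothelial range against 0.0470 in Egfl7-only cells, and Cenpf one of 2.03 (1.45 to 2.77) against 0.0687. Depth moved with this result, since the median total of Egfl7-only cells was 5288 UMIs, and its part was not tested.

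The 152 cells of the fibroblast range resembled fibroblast-only cells, with medians of 137.5 UMIs of the fibroblast panel and 3 of the endothelial panel, the latter being that of fibroblast-only cells as well. Erbb4 had a level of 74.2 against 63.4 in fibroblast-only cells and Prg4 one of 17.8 against 13.5. By ratio to fibroblast-only cells, the genes furthest up among those with at least 20 UMIs, named after their values were seen, included Sele, Bdnf and Lama5. Sele, encoding E-selectin, had a level of 0.186 (0.117 to 0.282) against 0.0448, from 22 UMIs in 5 cells. Lama5, a laminin chain of basement membranes, had one of 0.296 (0.206 to 0.412) against 0.0985 in 16 cells, and Ptgs1 one of 0.304 (0.213 to 0.421) against 0.122 in 23 cells. Igfbp5 had a level of 2.73 (2.44 to 3.05) against 1.44. Each of these genes other than Bdnf is known from endothelium among other cells, and was listed by its rank alone.

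Markers of other cell types were scarce in the class. The leukocyte list, without Ptprc by the rule, summed to a level of 0.192 (0.149 to 0.244) over 16 genes, against 0.162 in Egfl7-only and 0.126 in fibroblast-only cells, and Spi1, Fcgr3 and Fcgr4 had 0 UMIs. In the middle range it was 0.256 (0.192 to 0.334), an interval above the levels of both comparison groups. Its highest member was Mrc1, at a level of 0.0717 in the class and 0.109 in the middle range, where 87.0% of its UMIs came from 3 cells. The mural list, with Rgs5 and Rgs4, summed to 0.0516. The cardiomyocyte list summed to 0.419 in the class and 0.574 in the middle range, most of it Ttn, whose level was 0.555 in the middle range and 1.10 in Egfl7-only cells. Mybpc3, a cardiac sarcomere gene, and Tnni1 had 0 UMIs in the class. Mlph, a melanocyte gene, had a level of 0.163 in the class, 0.0368 in Egfl7-only and 0.263 in fibroblast-only cells. No gene of the mesothelial list was in the matrix. The part of these cells in the results above was not tested.

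Cells with fibroblast genes and Egfl7 were set beside the other pairs of marker classes. Per 1000000 pairs of a fibroblast-gene cell and an Egfl7 cell, the class held 14.9 cells (13.5 to 16.5). For fibroblast genes with Ptprc it was 51.2 (40.2 to 64.3), from 74 cells, and for Egfl7 with Ptprc 39.4 (33.6 to 45.9), from 163 cells. By this measure the class was the least frequent of the 3 combinations. When at least 2 UMIs were asked for, the values were 8.32, 31.0 and 19.5. The class was also lowest within each run, at 16.6, 66.5 and 44.5 in the first and 157, 278 and 292 in the second, where the intervals of the class, 118 to 205, and of fibroblast genes with Ptprc, 127 to 528, overlapped. As a share of the cells of the rarer kind in each pair, with or without the other kind, the cells with both made up 11.6%, 13.6% and 25.8%, and in the second run 17.2%, 6.87% and 27.8%, so the order turned there between the class and fibroblast genes with Ptprc. Such a value scales with the size of a run and is compared within a column of the same cells. The medians of the 3 combinations were 8702.5, 7509 and 7302 UMIs.

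The rule did not take in all cells that held both programs. At least 20 UMIs of each panel, no Ptprc and a fraction from 0.1 to 0.9 were found in 464 cells, of which 181 belonged to the class and 283 did not. Of the 283, 236 had fewer than 2 of the fibroblast genes, 91 had no Egfl7 and 44 had neither. Their median total was 9122 UMIs, beside 10263 in the 181 of the class. Cells with both programs were therefore more frequent than the 224 cells of the middle range.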

How the data were processed

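Per the labels, cells of mitral valves were captured with a 10x Genomics 3' kit. The submitters' processing notes name Cell Ranger 7.1.0 and the genome build mm10. The study's methods describe filtering of cells by their number of genes and normalization in Seurat. The authors deposited a pooled table on the natural log scale, made with LogNormalize, in which 1 is added to a gene's UMIs per 10000 of the cell before the log is taken. From them, each cell's total was recovered as 10000 over its lowest positive value on the linear scale, and UMIs as multiples of that value, with 100% of values and totals whole within 0.02. Of 3265 listed genes, 1 with 11958 empty values was left out. No column was left unused.

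The planned steps were kept, and with 1 pooled matrix no test and no count model was used. Levels, sums over a group per 10000 UMIs, have 95% exact Poisson intervals, shares exact binomial intervals and medians order-statistic intervals (scipy 1.17.1, numpy 2.4.6, pandas 2.3.3, matplotlib 3.10.9, Python 3.11.15). Panels took genes 10 times apart between the comparison groups with at least 50 UMIs in the higher. A gene was called at 1.5 times, or 1/1.5, with at least 20 UMIs observed or expected. Thinning used random seed 1. Scripts were tested on simulated data. The class, the comparison groups and the gene lists were chosen with earlier results of these data known. Genes named were those of the lists, the 10 furthest above or below both groups or the mixture, and the 5 leading genes of each panel, and other genes named were chosen after their values were seen. Some genes that these rules named are not reported here. Symbols were matched to GENCODE annotation of GRCm38. Alternatives changed the rule, the comparison cells, the panels, the fold, the filter, the depth and the run.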

Additional observations from a re-analysis of the deposited data

How the results depend on the processing

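No paired analysis was possible because the matrix pools the samples and no barcode carries a replicate. Of 60 values recomputed under alternatives, 28 stayed within the interval of the value reported, or within 1.5 times of a gene count. The other 32 moved. The class share of 2.47% was 1.28% with at least 2 Egfl7 UMIs, 0.922% with all 3 fibroblast genes and 0.516% after thinning. Its median total was 9313 and 9426 UMIs under the first 2 of these, 9436 in the second run and 9553 for the middle range, and its ratio to the pair sums 0.806, 0.816, 0.636 and 0.827, or 0.695 with stricter comparison cells. The median endothelial fraction was 0.385, 0.156 and 0.0614 under the first 3 of these settings, and 0.279 and 0.121 with panels at 5 and 20 times. Genes above both groups numbered 10 with all 3 fibroblast genes, 8 at a fold of 2, 4 with at least 50 UMIs, 156 without a filter, 9 in the middle range and 11 without mitotic cells, against 19. Genes off the mixture fell from 75 to 15 at a fold of 2. Cells per 1000000 pairs were 8.32, 31.0 and 19.5 with at least 2 UMIs, 16.6 and 66.5 in the first run for the pairs with fibroblast genes, and 157, 278 and 292 in the second run. The last settings change the number of pairs by construction, and for the others the cause was not tested. The totals of the middle range, the comparison cells beyond the limits of the fraction or with up to 1 fibroblast gene, and the removal of mitotic cells or panel genes were chosen after seeing the data. Depth limits genes of a few UMIs, such as Snai1, and the second run holds 20 middle-range cells.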

Other observations

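Genes at the ends of the endothelial range, ranked by their ratio to Egfl7-only cells and named after their values were seen, were not described above. After the genes of cell division, Ninl, a centrosomal gene, ranked furthest up. Its level was 1.78 (1.24 to 2.47) UMIs per 10000 in 9 of the 28 cells, against 0.341. Further along the ranking, Npas2, a circadian transcription factor, had a level of 1.17 against 0.285. Smc4, a condensin subunit, had one of 3.50 (2.73 to 4.43) in 15 cells against 1.12. Cacnb4 ranked between Ninl and Npas2, and Anp32e, Morrbid and Selp between Npas2 and Smc4. Furthest down after Kif26b was Ptprt, a receptor phosphatase, at a level of 0.305 (0.112 to 0.663) against 2.11, from 6 UMIs in 3 cells. Ttn and Celf2 followed. Next came Tshz2, a transcription factor, at a level of 6.96 (5.84 to 8.22) in 25 cells against 17.2.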
